A study of Blattella germanica with 16 samples.

Results

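The 5 genes described here encode the core of fatty acid synthesis and enzymes of the pathway that supplies its reducing power. They were chosen by identity in the annotation of the German cockroach Blattella germanica, as the rows for ACLY (locus tag C0J52_24015), ACAC (C0J52_06031), Fasn (C0J52_23658), ZW (C0J52_09260) and TKTL1 (C0J52_15649), and make up 5 of the 28676 genes measured. All 5 were among the 10536 genes with enough reads to be tested. The 5 genes and the gene lists used below were chosen with earlier results of these data known.

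ATP-citrate synthase (ACLY) cleaves citrate in the cytosol and releases acetyl-CoA. Acetyl-CoA carboxylase (ACAC) turns acetyl-CoA into malonyl-CoA, the committed step of the pathway, and fatty acid synthase (Fasn) joins these units into long-chain fatty acids at the cost of NADPH. Glucose-6-phosphate 1-dehydrogenase (ZW, named after the Drosophila gene Zwischenferment) makes NADPH in the entry reaction of the pentose phosphate pathway. TKTL1 is annotated as transketolase-like protein 1; transketolases move carbon units between sugar phosphates in the non-oxidative branch of that pathway. In insects the fat body, which combines roles of the vertebrate liver and adipose tissue, is the main site of lipid synthesis and storage, and insulin signalling is known to stimulate lipid storage there.

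RNA was sequenced from the fat body of adult B. germanica females given double-stranded RNA against an insulin receptor (dsInR1, dsInR2 or dsInR3) or control dsRNA (dsMock), with 4 libraries a group. Every group, dsMock included, received 2 injections of 2 µg of dsRNA at an interval of 7 days, with rearing at 30 °C, a humidity of 70% and a dog food diet. The series design counts the first injection from the start of ootheca transport, with oothecae taken off on day 12 and tissue dissected 5 days into the next cycle, while the treatment protocol puts the injections 12 and 5 days ahead of extraction; the sources used here do not reconcile them. The injections reach the whole animal, so none of the groups is a fat-body-specific model, and combined treatments against several receptors are not among the groups.

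Libraries held 16.5 to 21.6 M counted reads in dsInR1, 16.4 to 23.7 M in dsInR2, 15.5 to 21.0 M in dsInR3 and 15.3 to 21.2 M in dsMock. Levels are counts scaled to a common library total (CPM) after TMM scaling, as mean ± SD with n = 4, and libraries are named by group and by the number in the column name. The annotation holds 1 named insulin receptor and does not say which of the 3 it is; its level was 48.9 ± 2.62 CPM in dsInR1, 5.90 ± 1.86 CPM in dsInR2 and 38.5 ± 6.41 CPM in dsInR3, against 52.8 ± 1.70 CPM in dsMock, so the targeting of the other receptors was not checked here. The gene C0J52_15443, a hypothetical protein, took 54.1 to 60.9% of the reads in dsInR1, 2.3e-04 to 6.99% in dsInR2 and 35.1 to 56.9% in dsInR3, against 51.1 to 58.8% in dsMock. The fat body marker apolipophorin (APLP), the carrier of lipids in hemolymph, was abundant in every group, with 66495 ± 7857 CPM in dsInR2 and 29390 ± 6631 CPM in dsMock, whereas hexamerin (HEXA), a storage protein, was at 44.4 ± 51.4 CPM in dsInR2 and 225 ± 69.3 CPM in dsMock.

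In dsInR2 fat body all 5 genes were higher than in dsMock, by 8.01-fold for Fasn to 28.4-fold for ACLY. All 5 passed the threshold of an adjusted p of 0.05 in the edgeR quasi-likelihood test, where 17.6% of all tested genes were called higher. Each of the 5 genes lay above every dsMock library in all 4 dsInR2 libraries, which was true of 15.7% of all tested genes. These shares are not a test of the set, since the 5 genes were chosen with earlier results of these data known. In dsInR1 none of the 5 passed, and in dsInR3 TKTL1 alone passed. P-values measure the spread between these libraries, since the labels do not say how many animals stand behind each one. In bulk tissue, fewer cells of a type and less RNA per cell cannot be told apart.

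**Figure D1:**
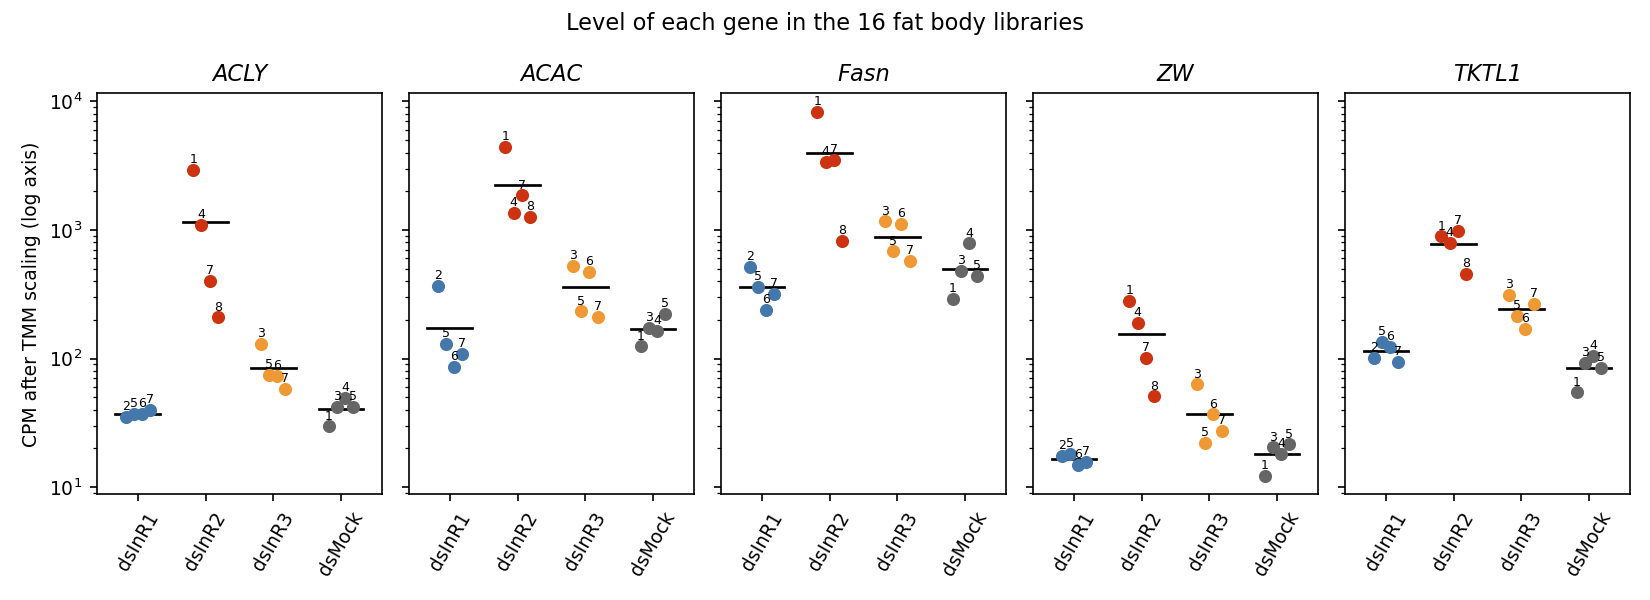
CPM after TMM scaling (log axis) of each gene in the 16 libraries, with dsInR1, dsInR2 and dsInR3 left of dsMock; points are libraries with their column number and lines are group means. All 4 dsInR2 points lie above all 4 dsMock points for each of the 5 genes, and library 8 is the lowest dsInR2 library for all of them.

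ACLY, which supplies cytosolic acetyl-CoA, had 34.9, 37.4, 36.9 and 39.6 CPM in dsInR1 libraries 2, 5, 6 and 7, 2914, 1089, 399 and 209 CPM in dsInR2 libraries 1, 4, 7 and 8, and 131, 74.3, 73.6 and 57.8 CPM in dsInR3 libraries 3, 5, 6 and 7, against 29.7, 41.7, 49.2 and 41.9 CPM in dsMock libraries 1, 3, 4 and 5. The dsInR2 and the dsInR3 libraries all lay above dsMock, while the dsInR1 libraries lay inside its range. The group means were 37.2 ± 1.92 CPM in dsInR1, 1153 ± 1234 CPM in dsInR2 and 84.1 ± 32.0 CPM in dsInR3, against 40.6 ± 8.08 CPM in dsMock. ACLY also spread most of the 5 among the dsInR2 libraries, the highest being 13.9 times the lowest. The log2 fold change of dsInR2 against dsMock was 4.83 (SE 0.65, 95% interval 3.44 to 6.21, adjusted p = 7.9e-05), and without dsInR2 library 1 it was 3.80.

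ACAC, the carboxylase that makes malonyl-CoA, had 366, 131, 85.6 and 109 CPM in the dsInR1 libraries, 4405, 1350.2, 1859 and 1269 CPM in the dsInR2 libraries and 528, 232, 474 and 211 CPM in the dsInR3 libraries, against 124, 172, 164 and 224 CPM in the dsMock libraries, in the same library order. A single dsInR1 library, number 2, exceeded all of dsMock, and dsInR3 library 7 lay inside the dsMock range. The means were 173 ± 130.0 CPM in dsInR1, 2221 ± 1479 CPM in dsInR2 and 361 ± 163 CPM in dsInR3, against 171 ± 40.8 CPM in dsMock. ACAC rose in dsInR2 by a log2 fold change of 3.70 (SE 0.54, 95% interval 2.54 to 4.86, adjusted p = 1.5e-04), or 13.0-fold.

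Fasn, which builds the fatty acid chain, had 516, 362, 238 and 318 CPM in the dsInR1 libraries, 8311, 3383, 3489 and 819 CPM in the dsInR2 libraries and 1165, 680.2, 1112 and 579 CPM in the dsInR3 libraries, against 289.6, 483, 786 and 439 CPM in the dsMock libraries. It was the gene on which dsInR2 and dsMock came closest, since dsInR2 library 8 had 819 CPM and dsMock library 4 had 786 CPM. The means were 358 ± 117 CPM in dsInR1, 4001 ± 3128 CPM in dsInR2 and 884 ± 297 CPM in dsInR3, against 499 ± 208 CPM in dsMock. The log2 fold change of dsInR2 against dsMock was 3.0 (SE 0.54, 95% interval 1.84 to 4.16, adjusted p = 7.0e-04), and without dsInR2 library 1 it was 2.36. The annotation lists 4 further fatty acid synthase models, FASN_0 to FASN_3, on contig PYGN01000380.1. FASN_0, with 648 reads over the 16 libraries, was tested and did not pass in dsInR2 against dsMock (log2 fold change 0.37, adjusted p = 0.859), and FASN_1, FASN_2 and FASN_3 had 3, 30 and 22 reads in total.

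ZW, which makes NADPH from glucose 6-phosphate, had 17.5, 18.1, 14.9 and 15.6 CPM in the dsInR1 libraries, 279, 190.0, 101 and 50.7 CPM in the dsInR2 libraries and 62.9, 22.0, 36.7 and 27.5 CPM in the dsInR3 libraries, against 12.2, 20.3, 18.2 and 21.5 CPM in the dsMock libraries. The dsInR2 and dsInR3 libraries all lay above dsMock, though dsInR3 library 5 exceeded the highest dsMock library only narrowly. The means were 16.5 ± 1.49 CPM in dsInR1, 155 ± 101 CPM in dsInR2 and 37.3 ± 18.1 CPM in dsInR3, against 18.1 ± 4.13 CPM in dsMock. ZW rose in dsInR2 by a log2 fold change of 3.10 (SE 0.45, 95% interval 2.15 to 4.06, adjusted p = 1.3e-04), or 8.59-fold.

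TKTL1, of the transketolase family, had 102, 135, 123 and 93.9 CPM in the dsInR1 libraries, 892, 798, 979 and 457 CPM in the dsInR2 libraries and 314, 215, 170.2 and 265 CPM in the dsInR3 libraries, against 54.5, 92.9, 105 and 84.1 CPM in the dsMock libraries. Its dsInR2 libraries were the least spread of the 5 genes, the highest being 2.14 times the lowest, and every dsInR3 library lay above every dsMock library. The means were 114 ± 19.0 CPM in dsInR1, 781 ± 228 CPM in dsInR2 and 241 ± 62.0 CPM in dsInR3, against 84.0 ± 21.4 CPM in dsMock. TKTL1 rose in dsInR2 by a log2 fold change of 3.22 (SE 0.28, 95% interval 2.62 to 3.81, adjusted p = 2.7e-06), or 9.30-fold, and its p-value ranked 26 among the 10536 genes tested.

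The order of the libraries within a group was in part shared by the 5 genes. Within dsInR2, library 8 was the lowest for all 5 and library 1 the highest for ACLY, ACAC, Fasn and ZW, while library 7 was the highest for TKTL1. Within dsInR3, library 3 was the highest for all 5, and within dsMock, library 1 was the lowest for all 5. The share of C0J52_15443 also varied between these libraries: dsInR2 libraries 1, 4, 7 and 8 had 0.0822, 6.99, 6.38 and 2.3e-04%, and dsInR3 library 3 had 35.1%, the lowest of its group. Its part in the order of the libraries was not tested. Summed over the 5 genes, the share of all reads was 0.0588 ± 0.0197% in dsInR1, 1.06 ± 0.690% in dsInR2 and 0.165 ± 0.0768% in dsInR3, against 0.0728 ± 0.0224% in dsMock. With C0J52_15443 left out of the total, the share was 0.140 ± 0.0472% in dsInR1, 1.09 ± 0.683% in dsInR2 and 0.323 ± 0.0917% in dsInR3, against 0.163 ± 0.0484% in dsMock.

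Lists of marker genes of other cell types were read beside these results, as the range of their summed CPM over the 4 libraries of a group. For muscle it was 89.0 to 197 in dsInR1, 139 to 309 in dsInR2 and 86.6 to 182 in dsInR3, against 112 to 208 in dsMock. The oenocyte sum was 238 to 323 in dsInR1, 206 to 448 in dsInR2 and 224 to 299.7 in dsInR3, against 139.8 to 431 in dsMock. The 1 hemocyte marker had 39.5 to 109.9 in dsInR1, 52.1 to 271 in dsInR2 and 61.1 to 114 in dsInR3, against 83.2 to 132 in dsMock. For all 3 of these the dsInR2 and dsMock ranges overlapped. For gut and Malpighian tubule the range was 388 to 679.6 in dsInR1, 208 to 372 in dsInR2 and 526 to 839.8 in dsInR3, against 473 to 1054 in dsMock. That sum was lower in every dsInR2 library than in any dsMock library, but its members did not share a direction: of 16 tested, 4 were called higher, 3 lower and 9 neither, with a median log2 value of 0.59. Mal-B1_3, annotated as maltase 1 and among the members called lower, had 36.9 ± 17.6 CPM in dsInR2 and 435 ± 269 CPM in dsMock. The mean of the list's sum was 277 CPM in dsInR2 and 679 CPM in dsMock, so most of its fall lay in this gene. For ovary and germline it was 105 to 120.0 in dsInR1, 75.3 to 124 in dsInR2 and 98.6 to 108 in dsInR3, against 94.98 to 165 in dsMock. The epidermis and trachea sum was 5.30 to 10.6 in dsInR1, 7.54 to 20.8 in dsInR2 and 8.85 to 16.1 in dsInR3, against 3.29 to 16.2 in dsMock. The sum for nervous tissue was 44.7 to 55.0 in dsInR1, 40.2 to 50.8 in dsInR2 and 44.1 to 52.8 in dsInR3, against 45.6 to 51.6 in dsMock. The dsInR2 and dsMock ranges of the ovary, epidermis and nervous lists overlapped. Markers with 0 reads in all 16 libraries numbered 1 of 17 for muscle (TpnC41C_1), 3 of 18 for oenocytes, 10 of 35 for gut and Malpighian tubule, 34 of 55 for epidermis and trachea and 5 of 19 for nervous tissue. The part of these markers in the levels of the 5 genes was not tested.

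In dsInR1 none of the 5 genes differed from dsMock beyond the spread between libraries. The log2 fold changes against dsMock were -0.13 for ACLY (95% interval -1.32 to 1.06), 0.01 for ACAC (-1.03 to 1.06), -0.48 for Fasn (-1.56 to 0.60), -0.13 for ZW (-1.02 to 0.77) and 0.43 for TKTL1 (-0.11 to 0.98). Without dsInR1 library 2 the value of ACAC was -0.66. None of the 5 passed in edgeR, with an adjusted p of 1.0 for each, in DESeq2 or in limma-voom, and none had an unadjusted p below 0.05. Over all tested genes edgeR called 0% in this comparison, and 3.29% had an unadjusted p below 0.05. The intervals of ACLY, ACAC, Fasn and ZW still reach past 1 log2 unit in at least 1 direction. At 4 libraries a group these values thus do not show that the genes were unaffected. Each gene's spread was fitted over all 16 libraries, so the spread within dsInR2 also enters the intervals of dsInR1 and dsInR3. For ACLY the SD was 107% of the mean in dsInR2, 5.16% in dsInR1, 38.1% in dsInR3 and 19.9% in dsMock.

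**Figure D2:**
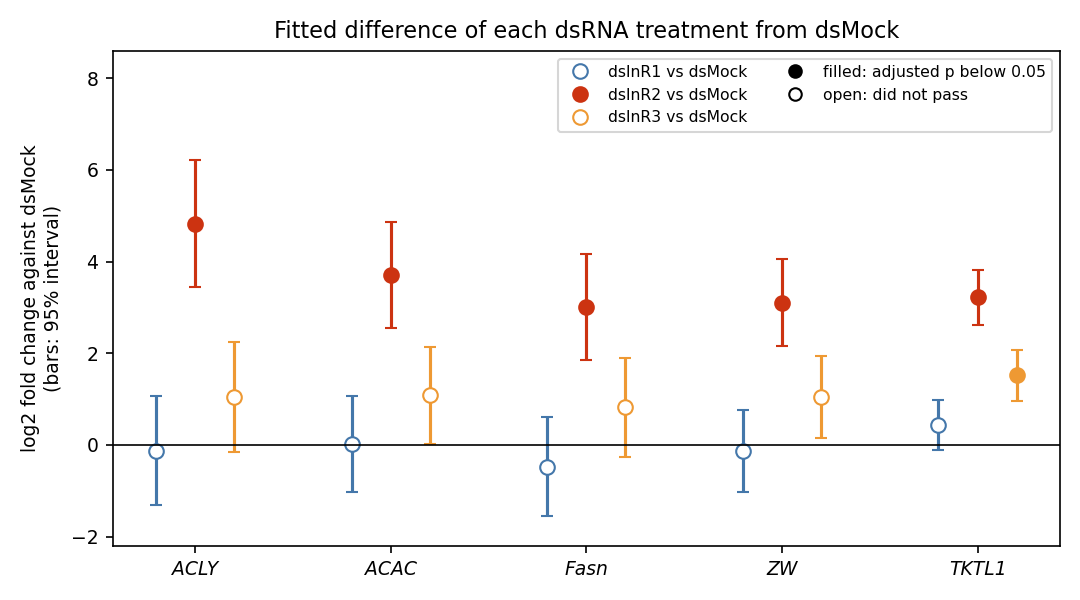
Fitted log2 fold change of dsInR1, dsInR2 and dsInR3 against dsMock for each gene, with 95% intervals; filled points passed an adjusted p of 0.05 in edgeR and open points did not. The dsInR2 points run from 3.0 for Fasn to 4.83 for ACLY, and among the dsInR1 and dsInR3 points TKTL1 in dsInR3, at 1.52, is filled.

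In dsInR3, TKTL1 rose 2.87-fold against dsMock (log2 fold change 1.52, SE 0.26, 95% interval 0.96 to 2.08, adjusted p = 0.0306 in edgeR), and its p-value ranked 11 among all tested genes. That made 1 of the 5 genes, in a comparison where 0.199% of all tested genes were called higher. In a fit of dsInR3 and dsMock alone its adjusted p was 0.0693, and 7 of the 16 fits that left out 1 library missed the threshold, with adjusted p-values of 0.140, 0.0664 and 0.0908 without dsInR3 libraries 3, 5 and 7, of 0.0556 without dsInR1 library 5, and of 0.102, 0.0515 and 0.103 without dsMock libraries 1, 3 and 5. The other 4 genes had positive values that did not pass. They were 1.05 for ACLY (95% interval -0.15 to 2.25, adjusted p = 0.412 in edgeR), 1.08 for ACAC (0.03 to 2.13, adjusted p = 0.324), 0.82 for Fasn (-0.26 to 1.91, adjusted p = 0.487) and 1.05 for ZW (0.15 to 1.94, adjusted p = 0.255). Without adjustment, 3 of the 5 genes had a p below 0.05, as did 14.7% of all tested genes. ACLY, ZW and TKTL1 had every dsInR3 library above every dsMock library, which 5.62% of all tested genes had, and ACAC and Fasn overlapped with dsMock.

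The dsInR2 libraries also stood above those of the other receptor treatments. Against dsInR1 all 5 genes passed, where 16.8% of tested genes were called higher, with log2 fold changes of 4.95 for ACLY, 3.68 for ACAC, 3.48 for Fasn, 3.23 for ZW and 2.78 for TKTL1 (adjusted p from 9.3e-06 to 3.2e-04 in edgeR). None of the 5 overlapped between these groups, and 15.3% of tested genes lay above dsInR1 in every dsInR2 library. Against dsInR3 all 5 passed as well, where 11.6% were called higher, with 3.78 for ACLY, 2.62 for ACAC, 2.18 for Fasn, 2.06 for ZW and 1.70 for TKTL1 (adjusted p from 3.8e-04 to 0.0079 in edgeR). For Fasn and ZW the lowest dsInR2 library, number 8, lay below the highest dsInR3 library, number 3, and ACLY, ACAC and TKTL1 did not overlap, as 10.5% of tested genes did not. Without dsInR2 library 1, ACLY was at 3.93 and Fasn at 2.84 against dsInR1, and ACLY at 2.75 and Fasn at 1.54 against dsInR3, all still passing. Without dsInR1 library 2, ACAC was at 4.36 against dsInR1. These comparisons share the dsInR2 libraries with each other and with the one against dsMock.

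For dsInR1 against dsInR3 the values lay between -1.30 for Fasn and -1.07 for ACAC, and none of the 5 passed in edgeR (adjusted p from 0.274 to 0.553), where 0% of all tested genes passed. Without dsInR1 library 2 the value of ACAC was -1.74 (adjusted p = 0.386). The unadjusted p was below 0.05 for 4 of the 5, as for 9.21% of all tested genes. DESeq2 called TKTL1 lower (-1.07, adjusted p = 0.0132) and limma-voom called none. ACLY, Fasn, ZW and TKTL1 had every dsInR1 library below every dsInR3 library, which 3.31% of tested genes had. An F test over the 4 groups in edgeR was passed by all 5 genes, and by 29.4% of all tested genes.

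Ratios between the genes within a library, which do not depend on library scaling, were compared between dsInR2 and dsMock for all 10 pairs. The log2 ratio of ACLY to Fasn reads averaged -2.06 ± 0.74 in dsInR2 and -3.55 ± 0.31 in dsMock, a difference of 1.49. The log2 ratio of ACLY to ZW reads averaged 2.48 ± 0.65 in dsInR2 and 1.18 ± 0.22 in dsMock, a difference of 1.31. For both pairs the libraries of the groups did not overlap, and the two-sided exact permutation p was 0.0286, the smallest that 4 against 4 allows, with an adjusted p of 0.143 over the 10 pairs. None of the 10 pairs passed after adjustment, and the other 8 had exact p-values of at least 0.143. At 4 against 4 a pair could pass this adjustment only if most of the 10 pairs reached the smallest p of 0.0286. The missing calls therefore do not show that the ratios were unchanged. The ratio of Fasn to ZW, the synthase to the NADPH-producing dehydrogenase, differed by -0.18 on the log2 scale (exact p = 0.629), with 4.54 ± 0.54 in dsInR2 and 4.73 ± 0.48 in dsMock.

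**Figure D3:**
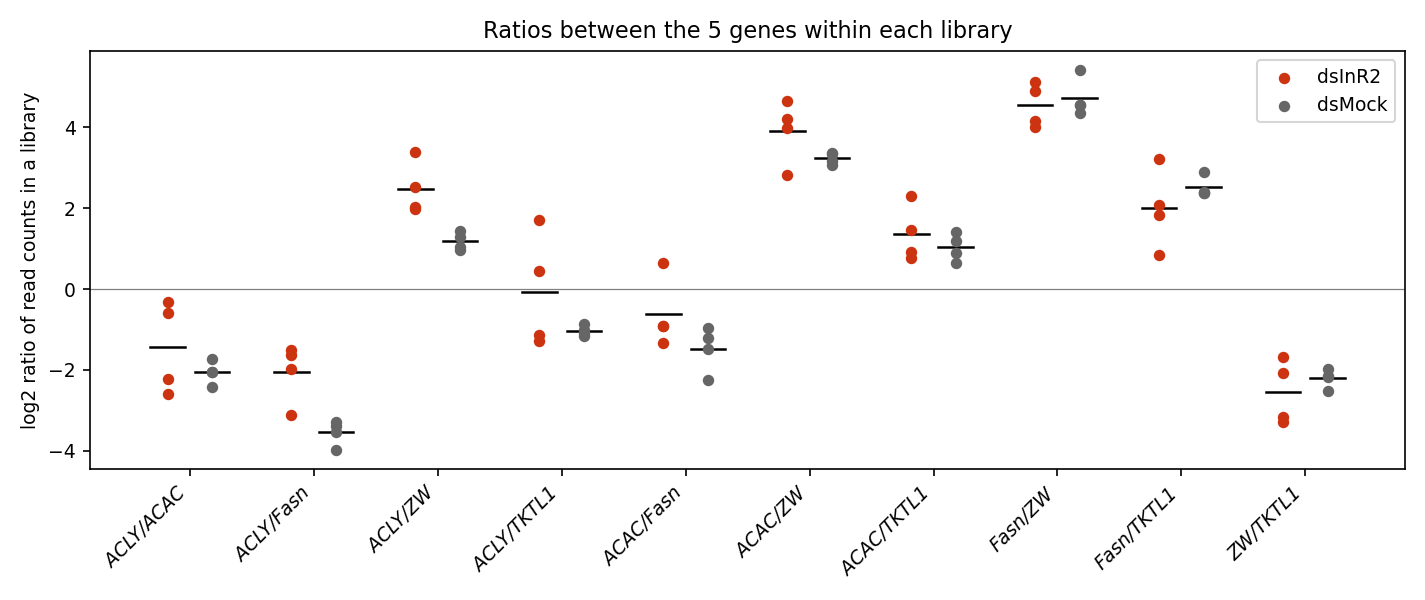
Log2 ratio of read counts between pairs of the 5 genes in each library of dsInR2 (left of each pair) and dsMock (right), with lines at the group means. The ratios of ACLY to Fasn and of ACLY to ZW are higher in all 4 dsInR2 libraries than in the dsMock libraries, by 1.49 and 1.31 on average, and the other pairs overlap or differ with p-values of at least 0.143.

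Part of the list of acetyl-CoA and malonyl-CoA supply, built from product names, rose with ACLY and ACAC in dsInR2. Of the 7 other tested genes of acetyl-CoA and malonyl-CoA supply, 3 rose, none fell and 4 did not pass. Their median log2 fold change was 1.24, beside 0.04 over all tested genes, of which 17.6% were called higher and 14.7% lower. That median was the value of AcCoAS_2, an acetyl-CoA synthetase for which library 1 alone of the dsInR2 libraries lay above all of dsMock. Without dsInR2 library 8 the count that rose was 5. With libraries scaled by their total counts, a scaling that moved the median of all tested genes to 0.61 and called 4270 of 10536 higher, 6 of the 7 rose and their median was 1.74. Pyruvate carboxylase (PC), which makes oxaloacetate from pyruvate, rose to 754 ± 356 CPM in dsInR2, against 195 ± 30.7 CPM in dsMock (log2 fold change 1.95, SE 0.27, adjusted p = 9.1e-05 in edgeR). A gene annotated as putative citrate synthase 1, the enzyme that makes citrate, rose to 489 ± 220.1 CPM in dsInR2, against 258 ± 35.3 CPM in dsMock (0.92, adjusted p = 0.0130). The third was echdc1, annotated as ethylmalonyl-CoA decarboxylase, a metabolite-repair enzyme in mammals. It had 50.7 ± 10.1 CPM in dsInR2 and 14.5 ± 2.23 CPM in dsMock (1.81, adjusted p = 1.5e-05 in edgeR). It entered the list because its product name contains the words malonyl-CoA decarboxylase, and it is not a supply enzyme. The putative tricarboxylate carrier K11H3.3 had 19.4 ± 19.8 CPM in dsInR2 and 8.24 ± 1.17 CPM in dsMock and did not pass (1.23, adjusted p = 0.0766), nor did the acetyl-CoA synthetases AcCoAS_0, AcCoAS_1 and AcCoAS_2. AcCoAS_2 had 57.4, 8.8, 8.48 and 4.18 CPM in dsInR2 libraries 1, 4, 7 and 8, against 8.29 ± 2.35 CPM in dsMock. AcCoAS_1 had 214, 29.6, 27.6 and 11.96 CPM in these libraries, against 27.8 ± 8.83 CPM in dsMock. AcCoAS_0 and AcCoAS_1 also exceeded all of dsMock in dsInR2 library 1 alone. AcCoAS_0 had 21.7, 3.14, 3.24 and 1.11 CPM in dsInR2 libraries 1, 4, 7 and 8, in nearly the same proportions as AcCoAS_1 and AcCoAS_2. Whether these models are separate genes or pieces of 1 gene was not tested. They may therefore not count separately among the 7. K11H3.3 did so in dsInR2 libraries 1 and 4, with 48.6 and 14.3 CPM.

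The list of fatty acid synthases and their partners was built from product names. Of its 6 other tested genes, 1 rose and 5 did not pass (median log2 value 0.18). That share was close to the 17.6% of all tested genes called higher. With total counts 3 of the 6 rose and the median was 0.75, beside 0.61 and 4270 of 10536 called higher over all tested genes. The gene that rose was fabG, annotated as a 3-oxoacyl-[acyl-carrier-protein] reductase, with 109 ± 30.7 CPM in dsInR2 and 59.9 ± 10.8 CPM in dsMock (0.87, adjusted p = 0.0056 in edgeR). The malonyl-CoA transacylase gene beg (0.53, adjusted p = 0.122) and the 3-oxoacyl synthase genes OXSM_1 (-0.21) and OXSM_0 (-0.18) did not pass. OXSM_1 and OXSM_0 each had 28, 17, 13 and 27 reads in dsMock libraries 1, 3, 4 and 5. Whether they are separate genes was not tested. Genes of the beg, OXSM and fabG kinds encode separate proteins, each for a single reaction, whereas animal Fasn joins its reactions in 1 protein. The count of this list is therefore not a result about the reactions of Fasn.

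In the pentose phosphate pathway, all 6 other tested genes passed in dsInR2 against dsMock, 5 higher and 1 lower. Over all tested genes 17.6% were called higher and 14.7% lower. The list was written with earlier results of these data known. The median difference of the 6 was 1.63 on the log2 scale, beside 0.04 over all tested genes. The 5 higher genes passed under every scaling tried. The 1 lower gene, Pgls, did not pass with total counts (-0.49, adjusted p = 0.0947 in edgeR). Under that scaling no gene of the lists described here passed as lower. Transaldolase (TALDO1), which works beside transketolase, had 852 ± 250.1 CPM in dsInR2 and 174 ± 70.4 CPM in dsMock (2.29, SE 0.31, adjusted p = 7.8e-05 in edgeR). The NADPH-producing 6-phosphogluconate dehydrogenase (PGD) had 361 ± 146 CPM in dsInR2 and 104 ± 14.6 CPM in dsMock (1.80, adjusted p = 1.4e-04). Ribose-5-phosphate isomerase (RPIA) had 9.29 ± 3.54 CPM in dsInR2 and 2.15 ± 0.858 CPM in dsMock (2.11, adjusted p = 2.5e-04), and ribulose-phosphate 3-epimerase (RPE) differed by 0.77 (adjusted p = 2.6e-04). Both genes of this list outside the rule for naming were chosen after their values were seen. They were ribokinase (RBKS, 1.46, adjusted p = 5.6e-04 in edgeR) and 6-phosphogluconolactonase (Pgls), the enzyme between ZW and PGD. Pgls fell to 12.4 ± 3.82 CPM in dsInR2, against 25.1 ± 2.32 CPM in dsMock (-1.02, adjusted p = 0.0045). In dsInR3 none of the 6 passed in edgeR, and 5 had an unadjusted p below 0.05, beside 14.7% of all tested genes. DESeq2 called 1 higher, beside 292 of 10536, and gave no adjusted p for 3087 of the 10536. The median was 0.75, beside 0.00 over all tested genes. The values were 0.82 for TALDO1 (adjusted p = 0.199 in edgeR), 0.69 for PGD (0.211) and 0.98 for RPIA (0.168).

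**Figure D4:**
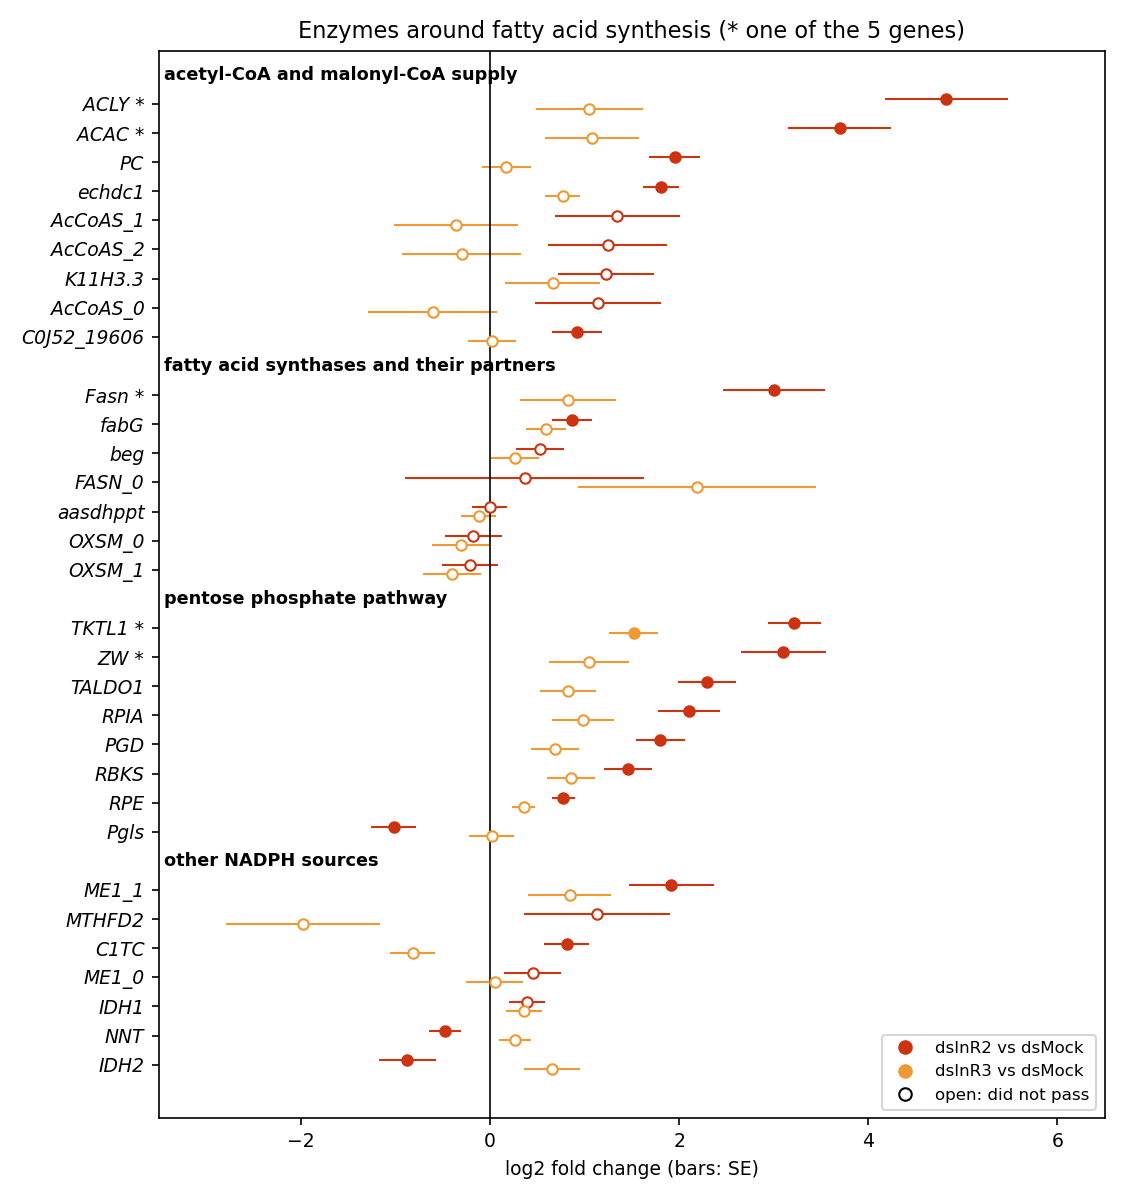
Log2 fold change against dsMock, with SE, for dsInR2 and dsInR3. The tested genes are those listed by product name under acetyl-CoA supply, fatty acid synthases and their partners, the pentose phosphate pathway and other NADPH sources. Filled points passed an adjusted p of 0.05 in edgeR and stars mark the 5 genes. In the pentose phosphate list every dsInR2 point is filled, with Pgls at -1.02 as the lower one, and TKTL1 is the filled dsInR3 point.

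Other sources of NADPH gave calls in both directions with TMM scaling. Of 7 tested genes, 2 rose, 2 fell and 3 did not pass in dsInR2, and the median was 0.45 on the log2 scale, beside 17.6% of all tested genes called higher and 14.7% lower. With total counts 4 rose, none fell and the median was 1.02, beside 0.61 and 4270 of 10536 called higher over all tested genes. The NADP-dependent malic enzyme gene ME1_1, whose product makes NADPH from malate, had 1909.9, 2074, 1924 and 291 CPM in dsInR2 libraries 1, 4, 7 and 8, against 409, 458, 387 and 389 CPM in the dsMock libraries. Library 8 thus lay below all of dsMock and the other dsInR2 libraries far above it (log2 fold change 1.92, SE 0.45, adjusted p = 0.0042 in edgeR). C1TC, annotated as C-1-tetrahydrofolate synthase, rose (0.81, adjusted p = 0.0177), and the mitochondrial-type isocitrate dehydrogenase IDH2 (-0.87, adjusted p = 0.0350) and the transhydrogenase NNT (-0.48, adjusted p = 0.0404) fell, though with total counts NNT turned to 0.08 and IDH2 was at -0.33, neither passing. The number lower was 0 without dsInR2 library 1, 4 or 8 or dsMock library 3 or 4, and 1 without dsInR1 library 2 or 5 or dsInR3 library 7. The number higher was 1 without dsInR2 library 7 or dsMock library 1 or 4. Among NADPH users outside fatty acid synthesis, the cytochrome P450 reductase Cpr fell (-0.97, adjusted p = 4.3e-04; -0.39 with total counts, adjusted p = 0.0561), and thioredoxin reductase Trxr-1 (0.22) did not pass.

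Downstream, 20 other tested genes of acyl-CoA activation and triglyceride assembly gave 2 higher, 4 lower and 14 that did not pass in dsInR2 (median log2 value -0.26), beside 17.6% of all tested genes called higher and 14.7% lower. With total counts the balance turned, with 6 higher, 0 lower and a median of 0.30. That scaling called 4270 of all 10536 tested genes higher, with a median of 0.61 over all. The median of the list was thus still below that of all tested genes. DGAT1, which makes triglyceride from diacylglycerol, fell (-1.04, adjusted p = 0.0030 in edgeR), as did the acyl-CoA ligase Acsl3 (-0.92, adjusted p = 0.0039), and with total counts neither passed (-0.47 for DGAT1 and -0.39 for Acsl3). The 2 that rose were the glycerol kinase GK3P_1 (1.23, adjusted p = 4.0e-04) and agk (1.08, adjusted p = 3.3e-04), annotated as acylglycerol kinase, whose mammalian namesake phosphorylates lipids in mitochondria and is not an assembly enzyme. Gpdh (-0.68) and DGKE (-0.51) fell as well, and DGKE, a diacylglycerol kinase, is also not an assembly enzyme. With total counts neither passed (-0.15 for Gpdh and 0.04 for DGKE). Without dsInR2 library 8 the counts were 4 higher and 2 lower, and without dsMock library 1 or 5 the number lower was 2. Of 6 regulators of lipid synthesis, none rose, 3 fell and 3 did not pass, with a median of -0.36, beside 14.7% of all tested genes called lower. With total counts 2 rose, none fell and the median was 0.20, also below the 0.61 over all tested genes. The genes that fell were foxo_1, 1 of 2 gene models of the transcription factor FoxO that acts downstream of insulin signalling (-0.59, adjusted p = 0.0062), and PRKAB1 (-0.41, adjusted p = 0.0175) and PRKAA2 (-0.48, adjusted p = 0.0328), subunits of AMP-activated protein kinase, which inhibits acetyl-CoA carboxylase by phosphorylation. None of these 3 passed with total counts, where foxo_1 was at -0.01, PRKAB1 at 0.14 and PRKAA2 at 0.08. The other foxo model, foxo_0, did not pass (-0.30, adjusted p = 0.0981).

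Over these lists together, the 55 genes other than the 5 gave 13 higher and 11 lower in dsInR2 against dsMock in edgeR, where 1851 of the 10536 tested genes were higher and 1551 lower. DESeq2 called 15 higher and 11 lower among the 55, beside 1950 higher and 1756 lower of all 10536. With limma-voom 13 were higher and 9 lower, beside 1708 higher and 1419 lower of all. In dsInR1 against dsMock none of the 55 passed in edgeR, DESeq2 or limma-voom, and 2 had an unadjusted p below 0.05, beside 3.29% of all tested genes. In dsInR3 against dsMock none passed in edgeR and 13 had an unadjusted p below 0.05, beside 14.7% of all tested genes. DESeq2 called 2 of the 55 higher and 3 lower, beside 292 higher and 151 lower of all 10536. It gave no adjusted p for 3087 of the 10536 in this comparison. Limma-voom called 1 higher and 2 lower, beside 189 higher and 123 lower of all.

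Across the 16 libraries, the tested genes most like the mean profile of ACLY, ACAC and Fasn were ranked by the root-mean-square difference of log2 CPM, each gene centred on its own mean. ZW ranked 2 of 10533 tested genes with a difference of 0.40, and TKTL1 ranked 8 with 0.67, while the median gene had 1.65. Read against the mean of the other 2 of the 3, ACAC ranked 3 with 0.56, Fasn 4 with 0.56 and ACLY 17 with 0.67. Large differences between dsInR2 and the other groups dominate this measure. The nearest genes other than the 5 were the hypothetical proteins C0J52_20872 (0.33), C0J52_06032 (0.50) and C0J52_05936 (0.55), followed by peroxiredoxin-6 PRDX6_1 (0.63), the carboxylesterase EST6_0 (0.66), the allergen gene CRPI_1 (0.67), the aldose reductase AKR1B1_1 (0.68) and the sialin gene SLC17A5_0 (0.68). C0J52_20872 had 2322 ± 1731 CPM in dsInR2 and 240.2 ± 89.5 CPM in dsMock. AKR1B1_1, whose family reduces sugars with NADPH, differed by 3.17 in dsInR2 and by 1.48 in dsInR3 against dsMock, the value in dsInR3 without passing (adjusted p = 0.0555 in edgeR).

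On the Bger_1.1 assembly the 5 genes lie on 5 contigs. ACLY spans 37560 to 96426 on PYGN01001930.1, ACAC 1130033 to 1175290 on PYGN01000152.1, Fasn 204 to 21761 on PYGN01016841.1, ZW 274022 to 297930 on PYGN01000816.1 and TKTL1 193894 to 219802 on PYGN01000519.1. The ACAC model shares 10410 bases with the hypothetical gene C0J52_06028, and without a stated strand setting reads in the shared stretch cannot be assigned with certainty. That neighbour had 7.47 ± 1.23 CPM in dsInR2 and 7.62 ± 1.25 CPM in dsMock (log2 fold change -0.03), while ACAC had 2221 ± 1479 CPM in dsInR2 and 171 ± 40.8 CPM in dsMock. The closest gene on the other side of ACAC, C0J52_06032, begins 42072 bases away and is the gene of rank 3 in the likeness above. It had 66.7 ± 43.7 CPM in dsInR2 and 4.71 ± 1.90 CPM in dsMock (3.82, adjusted p = 1.4e-04 in edgeR). Whether it is a separate gene or a piece of ACAC was not tested. The tested neighbours of ACLY, Fasn and ZW did not pass, with C0J52_24016 beside ACLY at -0.18, the COX11 gene beside Fasn at 0.29 and C0J52_09261 beside ZW at -0.32 (adjusted p = 0.0697).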

How the data were processed

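The read counts per gene, raw and not normalized, were deposited by the authors in 1 table for 28676 genes and 16 libraries. Per the submitters' processing notes, the tools were FastQC, Trimmomatic, HISAT2 and StringTie, with no versions. The build, Bger_1.1, is the one named with the table and in the annotation. Strand use in counting and the handling of reads that match several genes are not stated here in any source. Each column gives a group and a library number other than the replicate number of the titles, so a column could be tied to its group alone. Control columns refer to dsRNA of polyhedrin and were read as dsMock, the group without other columns. The table's other 32 columns of values by library, in FPKM and TPM, were likewise tied to no single sample and were not used, so levels of different genes are not compared per length.

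Genes were tested with edgeR 4.0.16 in R 4.3.3 (two-sided quasi-likelihood test, TMM scaling, filterByExpr, which kept 10536 genes, and a mean per group fitted over the 16 libraries together). Benjamini-Hochberg adjustment ran over all tested genes in each comparison, with a threshold of 0.05. Adjusted p-values in the text come from that fit unless another tool is named. The procedure was tested on simulated data. Ratios within a library used counts plus 0.5 and an exact permutation test, adjusted over 10 pairs. Intervals are at 95%. The libraries held 15.3 to 23.7 M reads, and the fewest reads of any of the 5 genes in a library were 190, for ZW.

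Alternatives were RLE scaling, total counts, leaving out C0J52_15443, no filter, a CPM of at least 1 in at least 4 libraries, DESeq2 1.42.0, limma-voom (limma 3.58.1) with sample weights, the compared groups alone, and leaving out each library. Adjusted p-values that DESeq2 gives as missing stayed missing, as for 3087 of the 10536 genes in dsInR3 against dsMock. Named genes were all 5, the other tested genes of each list with the 4 smallest adjusted p-values in dsInR2 against dsMock and an informative product name, and the 8 genes nearest in profile. Other genes were named outside this rule, among them AcCoAS_0, AcCoAS_1, AcCoAS_2, FASN_0 to FASN_3, RBKS, Pgls, Gpdh, DGKE and Mal-B1_3. Lists were built from product names. The 5 genes and the lists were chosen with earlier results of these data known.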

Additional observations from a re-analysis of the deposited data

How the results depend on the processing

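All 5 genes stayed higher in dsInR2 than in dsMock, dsInR1 and dsInR3 under each of the 8 alternative settings and each of the 16 fits without 1 library. Of 720 alternative values for the 30 gene-by-comparison results, 706 kept direction and side of the threshold. Without single libraries, the log2 fold changes of dsInR2 against dsMock ran from 3.80 to 5.18 for ACLY, 3.13 to 3.89 for ACAC, 2.36 to 3.34 for Fasn, 2.66 to 3.40 for ZW and 3.0 to 3.41 for TKTL1. The value of ACAC in dsInR1 against dsMock, 0.01, changed sign with total counts (-0.070) and limma-voom (-0.41) and ran from -0.66 to 0.24 without single libraries. TKTL1 in dsInR3 against dsMock was 1.50 without passing (adjusted p = 0.0693) in the fit of those groups alone, which left 0 of the 5 genes called; without single libraries it ran from 1.34 to 1.66 and 0 to 1 of the 5 were called. DESeq2 called TKTL1 in dsInR1 against dsInR3 (-1.07, adjusted p = 0.0132), 1 of the 5. The cause of these changes was not tested. Fits of the list counts in dsInR2 without single libraries, chosen after seeing the data, gave 2 to 5 genes higher for acetyl-CoA and malonyl-CoA supply, 1 to 3 higher and 0 to 2 lower for other NADPH sources, 2 to 4 higher and 2 to 4 lower for triglyceride assembly, 2 to 3 lower for regulators, and 5 higher and 1 lower throughout for the pentose phosphate pathway. The counts of these lists under other scalings were also chosen after seeing the data. Scaling by total counts moved the median of all genes in dsInR2 against dsMock to 0.61, with 4270 of 4798 calls higher, while edgeR with TMM called 1851 of 3402 higher. In dsInR3 against dsMock DESeq2 called 443 genes and limma-voom 312, against 32 in edgeR, 12 in the fit of those groups alone and 17 with no filter. A planned test on a per-length unit is not reported, since those columns are not used here. No paired analysis was possible because the library numbers in the columns are not the replicate numbers of the titles. Intervals of about 1 log2 unit on either side, narrower for TKTL1, limit what 4 libraries a group can show for dsInR1 and dsInR3. These intervals also carry the spread within dsInR2, since each gene's spread was fitted over all 16 libraries.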
